A study of Mus musculus with 18 samples.

Results

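MicroRNA genes with an array signal above background were described in single blastomeres of parthenogenetic 2-cell mouse embryos. The members were chosen by 2 criteria: the probe set carried a single gene symbol of the Mir or Mirlet7 type, and the mean log2 signal of the gene over all arrays exceeded 5.80. Of 597 microRNA genes measured in this way 208 (34.8%) were selected, and 389 were not. Of all 30176 named genes 12895 (42.7%) lay above the same value. Because the mean level selected the members, their levels are a description and not a finding.

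The study compared sister blastomeres, in order to learn whether the first cleavage shares out transcripts equally. Metaphase II oocytes of B6C3F1 mice (an F1 hybrid of C57BL/6 and C3H) were activated with SrCl2 together with latrunculin, so that diploid embryos formed with no sperm, and then grew in KSOM(aa). After 20 h of culture, once they had cleaved, each embryo was bisected and each blastomere was lysed on its own. There were 9 embryos (numbers 1 to 5 and 7 to 10) with sisters a and b, hence 18 blastomeres and 1 array for each, and all of them shared the same hybrid background, activation and medium, with no untreated or fertilized group. The labels named no batch. The 8 oocyte and 2-cell markers examined were all above the threshold, with levels from 7.87 to 17.44 (log2). Of the 6 measured markers of cumulus and granulosa cells, Has2 alone was above it, at 6.43 ± 0.44 (SD, n = 18).

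A microRNA is made from a long primary transcript, from which Drosha and Dgcr8 release a hairpin and Dicer1 then cuts the mature strand. The mature strand guides an Argonaute protein to messenger RNAs that pair with its seed, the bases 2 to 8 from its 5′ end. In the mouse, oocytes and early embryos are known for having little microRNA activity, while Dicer1 is needed in the oocyte for endogenous small interfering RNAs. The array probe sets are named for hairpin loci and the labelled material was copied from total RNA. A signal therefore counts any RNA that carries the hairpin sequence, and mature microRNA was not measured separately. RNA was extracted without a DNase step according to the study's methods, and the part that genomic DNA had in the signals was not tested.

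The sequences of the mature strands show which members belong together. Of the 208 members 151 matched an entry of the RefSeq sequence table (build GRCm38.p6). Capitals mark the seed. The first set is shown because several of the largest sister ratios came from an X-linked cluster, and because 4 of them (Mir465, Mir465b-2, Mir465c-2 and Mir465d) have the same 5p seed, AUUUAGA.
mmu-miR-465a-5p: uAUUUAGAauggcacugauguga
mmu-miR-465b-5p: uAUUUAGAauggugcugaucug
mmu-miR-465c-5p: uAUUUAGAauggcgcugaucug
mmu-miR-465d-5p: uAUUUAGAaugguacugauguga
mmu-miR-463-5p: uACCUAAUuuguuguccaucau
mmu-miR-470-5p: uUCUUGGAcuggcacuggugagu
mmu-miR-883b-5p: uACUGAGAauggguagcaguca

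The second set holds the members outside that cluster whose level differed between embryos. Mir684-1 and Mir684-2 differed likewise.
mmu-miR-703: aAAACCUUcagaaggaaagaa
mmu-miR-692: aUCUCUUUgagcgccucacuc
mmu-miR-1954: aCUGCAGAgugagacccuguu
mmu-miR-3470b: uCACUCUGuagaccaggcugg
mmu-miR-98-5p: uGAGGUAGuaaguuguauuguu

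The third set gives the let-7 members that share their seed GAGGUAG with miR-98, and 6 members carry it in the RefSeq sequences used. For Mirlet7a-2, also a member, these sequences held the other strand alone, so it is not counted.
mmu-let-7a-5p: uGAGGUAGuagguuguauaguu
mmu-let-7b-5p: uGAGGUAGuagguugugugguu
mmu-let-7d-5p: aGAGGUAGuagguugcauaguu
mmu-let-7e-5p: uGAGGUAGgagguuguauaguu
mmu-let-7f-5p: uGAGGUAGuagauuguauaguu

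The remaining sequences belong to 2 of the 5 members with the highest signal.
mmu-miR-3471: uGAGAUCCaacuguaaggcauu
mmu-miR-6240: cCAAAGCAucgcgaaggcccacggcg

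The 208 members had a median level of 7.05 on the log2 scale, against 7.77 over all genes above background. A level above 10 was found in 25 members (12%), against 23.7% of all genes above background, and 149 members were under 8. At the threshold, Mir466p (5.81 ± 0.25), Mir7015 (5.82 ± 0.35) and Mir6947 (5.83 ± 0.37) were the last members inside, and Mir409 (5.79 ± 0.46), Mir539 (5.79 ± 0.27) and Mir31 (5.78 ± 0.27) were just outside (SD, n = 18). In 136 members every blastomere was above 5.80. In 11 members at most 9 blastomeres were. Of these, Mir463, Mir883b, Mir1931 and Mir6994 reached their mean through a few high blastomeres. The 208 members made up 198 distinct rows, since 13 of them fell into 3 sets of the Mir466b and Mir467a copies with identical values.

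The 10 highest signals came from Mir3471-1 (19.13 ± 0.13), Mir3473f (17.42 ± 0.14), Mir3470b (17.16 ± 0.39), Mir703 (16.61 ± 0.56), Mir6240 (16.47 ± 0.40), Mir3471-2 (16.37 ± 0.13), Mir3473a (15.82 ± 0.37), Mir1954 (15.52 ± 0.49), Mir684-1 (15.13 ± 1.28) and Mir684-2 (14.91 ± 1.27). These are signals of different probe sets and do not rank the genes by abundance. For 4 of the 10 (Mir3471-1, Mir3473f, Mir3470b and Mir3473a) the probe set was named for another chromosome than the one on which RefSeq places the gene, and the probe set of Mir6240 was unplaced. Over all members the chromosomes agreed for 184 and disagreed for 18, while 5 probe sets were unplaced and 1 member had no RefSeq entry.

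Hairpin sequences of bright members also occurred elsewhere in the genome. Stretches of 21 bases of the hairpin, on both strands, were searched in 32815 RefSeq promoter windows other than those overlapping the hairpin, for 138 members with a hairpin sequence. At least 1 window held such a stretch for 6 of 15 members with a level over 10 (40%), for 13 of 123 other members (10.6%) and for 9 of 312 microRNA genes under the threshold (2.88%). Mir3473f matched 77 windows, Mir466k 75, Mir3473c 28, Mir1954 16, Mir3473b 13, Mir3471-1 12 and Mir3473a 11. For such members the signal cannot be assigned to the named locus, and how much of it came from other transcripts was not tested.

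Sister blastomeres were compared by the ratio of the higher over the lower value of a pair, on the linear scale, with the geometric mean over 9 pairs for each gene. The arrays had been normalized to each other before deposit, so a difference in total RNA between sisters cannot be read from the ratio, and array medians still differed. The median ratio of the members was 1.36 (quartiles 1.25 and 1.5), and their median ratio between blastomeres of different embryos was 1.43 over 144 combinations. Over all genes above background these medians were 1.45 and 1.56. Sisters were over 2-fold apart in 233 of 1872 member pairs (12.4%), against 18.9% of the pairs of all genes above background. A mean ratio over 2 was found in 16 members (7.69%), against 13% of all genes. No pair was over 2-fold apart in 89 members (42.8%), against 34.4% of all genes. The members had lower levels than these genes (medians 7.05 and 7.77), and 13 members are copies with identical values. The shares were not matched for level, so they do not show that microRNA genes were more even.

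**Figure D1:**
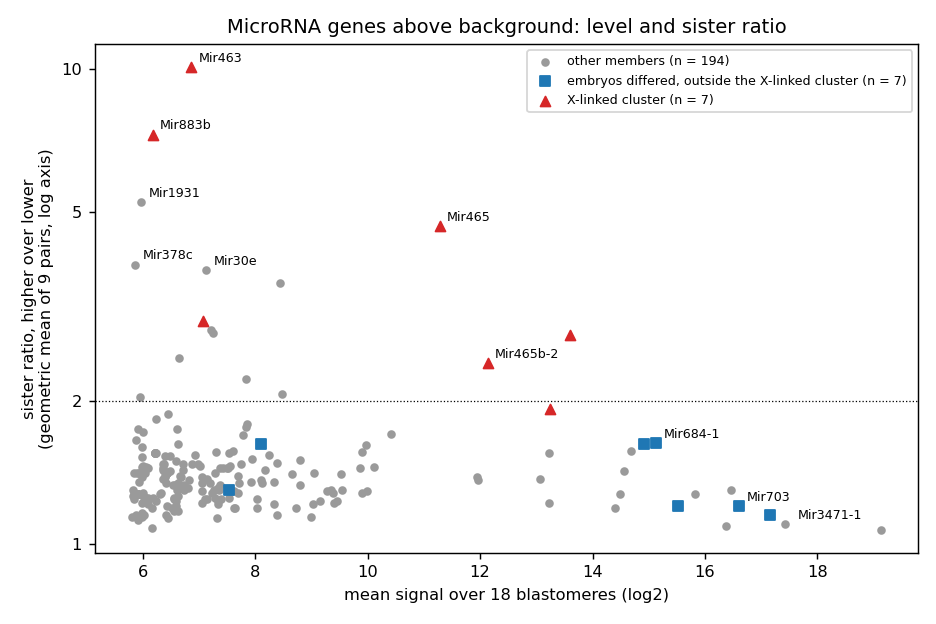
Each point is 1 of the 208 members, with its mean log2 signal over 18 blastomeres on the x axis and its sister ratio, the geometric mean over 9 pairs, on a logarithmic y axis. The dotted line marks a ratio of 2, and the highest ratios belong to Mir463 (10.1), Mir883b (7.28) and Mir1931 (5.25), of which the first 2 lie in the X-linked cluster. These genes were selected through the same high blastomeres that give their ratios.

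The pairs were not alike. In embryo 1, 54 members (26%) were over 2-fold apart, and in the other 8 embryos 16 to 31 members were (7.69% to 14.9%). Without embryo 1 the median sister ratio of the members was 1.305, and embryos differed in 10 members in place of 8. Over all genes above background, embryo 1 was also the highest, at 25.7% against 15.9% to 23.4%. Blastomere 1a had the highest median signal over the named genes, at 5.59, against 5.31 to 5.51 on the other arrays. Many members followed this array median. Its correlation with the member was over 0.5 in 68 members (32.7%), against 7.65% of all genes above background, as a description over 18 blastomeres that share their arrays. Whether array background had a part in these members was not tested.

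The members with the smallest sister ratios were Mir3471-1 (1.07), Mir344d-2 (1.08), Mir3471-2 (1.09), Mir3473f (1.10) and Mir7094-1 (1.12). Those with the largest were Mir463 (10.1), Mir883b (7.28), Mir1931 (5.25), Mir465 (4.67) and Mir378c (3.87). Mir463, Mir883b and Mir1931 were selected through the same high blastomeres that give their ratios, so these belong to the choice of members. Mir378c had embryo means from 3.895 (embryo 9) to 7.98 (embryo 5), so its ratio rests in part on values below the threshold. Each gene's sister variance was tested against the limma prior for genes of like signal. After Benjamini-Hochberg adjustment over all genes above background 0% passed, members included, and the smallest adjusted p was 0.918. Before adjustment 13 members (6.25%) were under 0.05, against 4.17% of all genes. The prior rested on 3.29 degrees of freedom, so that the test could hardly pass any gene after adjustment: Mir1931, with a sister SD of 2.49 against a prior of 0.31, did not pass. The 0% therefore says nothing on whether the sister spread of a member was unusual.

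Several of the largest sister ratios came from the X-linked cluster around Mir465. In the mouse this region holds many tandem microRNA genes that are best known from the testis. Of its 17 measured genes 7 were above the threshold, and 6 of these 7 were among the 16 members with a sister ratio over 2. Their ratios ran from 1.92 in Mir465d to 10.1 in Mir463, with a median of 2.94. Mir463 and Mir883b had medians of 5.66 and 4.99 and were selected through the same high blastomeres that give their ratios, so these belong to the choice of members. Of the other 5, 4 had a ratio over 2, up to 4.67. All 17 genes were read by probe sets placed on the X chromosome, and the cluster was singled out after its values had been seen.

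Mir463 was high in 1 sister of 5 pairs and low in the other. It read 6.39 and 11.33 in the sisters a and b of embryo 1, 9.90 and 5.04 in embryo 3, 5.56 and 9.94 in embryo 4, 5.06 and 9.47 in embryo 5, and 5.12 and 12.77 in embryo 8 (log2). In embryos 2, 7, 9 and 10 neither sister exceeded 6.29. The widest pair, in embryo 8, was 201-fold apart.

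Mir883b showed the same kind of pattern, mostly in other blastomeres. It read 9.43 and 6.69 in the sisters of embryo 2, 5.21 and 9.99 in embryo 4, 10.09 and 4.23 in embryo 5, 8.42 and 4.35 in embryo 8, and 10.53 and 4.70 in embryo 10. The other blastomeres lay between 3.96 and 5.79. In embryo 4 the same sister was high for Mir463 and Mir883b, whereas in embryos 5 and 8 the opposite sisters were. The correlation of these neighbours over 18 blastomeres was -0.15.

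Mir470 was above 9 in 3b (10.05), 5a (10.69) and both sisters of embryo 10 (11.07 and 9.62), and its lowest value was 4.46 in 2a. The adjusted p of its embryo difference was 0.057.

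The 4 copies that share the seed AUUUAGA were above the threshold in all 18 blastomeres, with means from 11.28 in Mir465 to 13.60 in Mir465c-2. Mir465 ranged from 6.81 in 7a to 15.08 in 1a, and the sisters of embryo 7 (6.81 and 12.91) were 68.6-fold apart. Mir465c-2 was likewise lowest in 7a (10.46) against 14.10 in its sister. Mir465d ranged from 9.16 in 2a to 15.30 in 4b. Over 18 blastomeres Mir465, Mir465b-2 and Mir465c-2 correlated with each other at 0.62 to 0.72, and Mir465d with these 3 at 0.11 to 0.27. The copies are near-identical and their probe sets may read each other's RNA, so that the values of a single copy are uncertain.

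The 10 genes of the cluster that fell below the threshold, on which the choice of members did not rest, also had isolated high values. Mir743b read 10.57 in 1b and 5.23 in 1a, and Mir743 read 10.18 in 5a and 5.19 in 5b. Mir741 read 9.23 in 4b and 8.65 in 7b, against 3.90 and 3.60 in their sisters. Mir742 and Mir883a were both high in 4a (8.71 and 7.91) and 8a (7.96 and 7.54). A value more than 3 log2 units above the gene's own median occurred in 6 of these 10 genes and in 10 of all 17, against 4.31% of the 580 other microRNA genes and 2.78% of all named genes. The 25 such values in the cluster came from both sisters of a pair in 1 case, Mir470 in embryo 10. This rule was chosen after the values were seen, and no test was made of it.

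**Figure D2:**
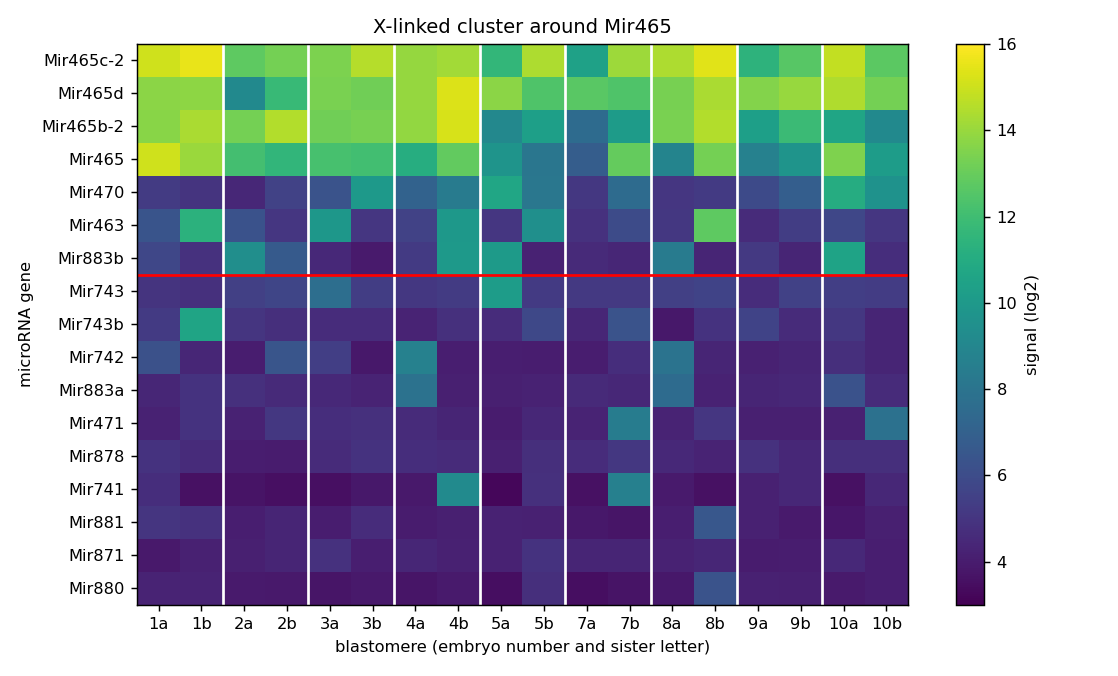
The colour gives the log2 signal of each of the 17 genes of the X-linked cluster (rows) in each of the 18 blastomeres (columns, sisters side by side between white lines). The 7 rows above the red line are members, and below it Mir743b is high in 1b alone (10.57) and Mir741 in 4b and 7b (9.23 and 8.65).

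Outside the cluster 7 of 201 members (3.48%) had a value more than 3 log2 units above their own median. The share of all named genes was 2.78%, so no excess is read from that of the members. The named genes include those below the threshold, and the share over genes above background alone was not taken. The 7 were Mir1931, Mir30e, Mir325, Mir6351, Mir683-2, Mir6962 and Mir6994. Of these, Mir1931 and Mir6994 were selected through the same high values. Mir1931 read 11.54 and 9.73 in the sisters of embryo 1, 11.36 in 3b against 4.27 in 3a, 10.08 in 5a against 4.77 in 5b, and 9.37 in 7b against 3.99 in 7a. The other 10 blastomeres lay at 3.63 to 4.73. Mir6994 was high in 3a alone (11.95), and its other 17 values ended at 6.31. Mir6351 read 10.99 in 2b against 6.39 in 2a and 12.08 in 9a against 6.47 in 9b. Mir6962 read 12.61 in 3b against 7.45 in its sister, Mir325 12.31 in 8a against 7.34, and Mir683-2 9.90 in 8b against 7.80. Mir30e is described with its neighbour Mir30c-1.

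Next, the spread between embryos was set against the spread between sisters with limma's moderated F test. Embryos differed in 8 of the 208 members (3.85%), against 5.8% of all genes above background, so that the share of members was not above that of genes in general. They were Mir703, Mir465b-2, Mir692-1, Mir1954, Mir684-1, Mir684-2, Mir3470b and Mir98, with adjusted p from 0.00465 to 0.0491. Before adjustment 22 members (10.6%) were under 0.05, against 22.6% of all genes.

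Mir703, whose mature sequence begins the second set above, read 16.50 and 16.59 in the sisters of embryo 1, 17.06 and 17.17 in embryo 2, 17.00 and 16.79 in embryo 3, 16.29 and 16.54 in embryo 4, 17.24 and 17.45 in embryo 5, 16.26 and 16.68 in embryo 7, 16.74 and 17.20 in embryo 8, 15.69 and 15.20 in embryo 9, and 16.37 and 16.28 in embryo 10. Both sisters of embryo 9 were below all other blastomeres. The embryo means spanned 1.90 log2 units, the sister ratio was 1.20 and the ratio between embryos 1.58 (adjusted p = 0.00465).

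Mir465b-2, of the X-linked cluster, had the widest embryo range among the 8. It read 13.68 and 14.36 in embryo 1, 13.29 and 14.52 in embryo 2, 13.16 and 13.31 in embryo 3, 13.91 and 15.23 in embryo 4, and 13.39 and 14.52 in embryo 8. It read 9.07 and 10.35 in embryo 5, 7.57 and 10.14 in embryo 7, 10.32 and 11.84 in embryo 9, and 10.65 and 9.17 in embryo 10. The first 5 of these embryos had both sisters above 13, and the remaining 4 had both below 12. The embryo means spanned 5.72 log2 units, the sister ratio was 2.40 and the ratio between embryos 6.55 (adjusted p = 0.00721).

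Mir684-1 on chromosome 2 and Mir684-2 on chromosome 4 gave the same pattern, with r = 1.00 between them over 18 blastomeres, so that they count as 1 observation. Mir684-1 read 16.86 and 16.26 in embryo 4 and 16.80 and 16.95 in embryo 7, against 12.97 and 13.01 in embryo 10. In embryos 5 and 8 the sisters differed (13.19 and 15.30, 13.42 and 14.79). The embryo means spanned 3.88 log2 units (adjusted p = 0.0258). The call was lost without either blastomere of embryo 7 or 10 or without 4a, and adjusted p was 0.112 without embryo 10. Apart from its copy, the gene most like Mir684-1 was Obox6, one of the oocyte-specific homeobox genes, at r = 0.94 over 18 blastomeres.

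Mir692-1 read 9.95 and 9.73 in embryo 1 and 8.94 and 10.81 in embryo 5, against 6.86 and 6.02 in embryo 9 and 7.10 and 6.27 in embryo 7. The embryo means spanned 3.44 log2 units (adjusted p = 0.0147). Among named genes Gm12164 (r = 0.94), Gm15590 (r = 0.93) and Ftl1 (r = 0.87), which encodes the ferritin light chain, were most like it over 18 blastomeres. For Mir703 the most like genes were Rbx1-ps (r = 0.94), Gm13456 (r = 0.93) and Gm14284 (r = 0.91). Their mean levels, 16.46, 16.49 and 16.47, were close to that of Mir703. Embryos differed in each of them as well (limma, adjusted p = 0.0364, 0.0111 and 0.0256). It was not tested whether the probe set of Mir703 read RNA of these genes, so its signal is not assigned to the named locus.

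Mir1954 lay at 14.80 to 15.06 in embryos 1, 2 and 3 and at 15.24 to 16.17 in the others, without overlap (embryo range 1.24, adjusted p = 0.0236). Mir3470b lay at 16.59 to 16.95 in the same 3 embryos and at 16.94 to 17.79 in the others (embryo range 1.05, adjusted p = 0.026), so that the ranges overlapped at 1b (16.95) and 10a (16.94). Gm25640 was among the genes most like both, at r = 0.91 with Mir1954 and r = 0.84 with Mir3470b. Mir3470a came closest to Mir3470b (r = 0.88). Mir1954 lost its call without 2a, 2b or 10b, and Mir3470b without any of 7 blastomeres (2a, 2b, 3a, 3b, 4b, 8a and 8b), with adjusted p of up to 0.0566 and 0.0621. Without both sisters of embryo 2 adjusted p was 0.0648 for Mir1954 and 0.0717 for Mir3470b. Both calls were also lost with the mean of a gene's probe sets (0.07 and 0.0649), with a prior without intensity trend (0.0637 and 0.121) and with a plain analysis of variance (0.064 and 0.0769), and that of Mir3470b after arrays had been centred on their medians (0.0525).

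Mir98, a let-7 family member on the X chromosome, lay at the margin. It was highest in embryo 10 (8.44 and 8.66) and embryo 1 (8.74 and 8.29) and lowest in embryo 5 (6.41 and 6.66), with an embryo range of 2.02 (adjusted p = 0.0491). The correlation of Mir98 with the array median was 0.73, and its adjusted p was 0.044 after arrays had been centred on their medians. The call was lost without any 1 of 16 blastomeres, with adjusted p of up to 0.114.

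**Figure D3:**
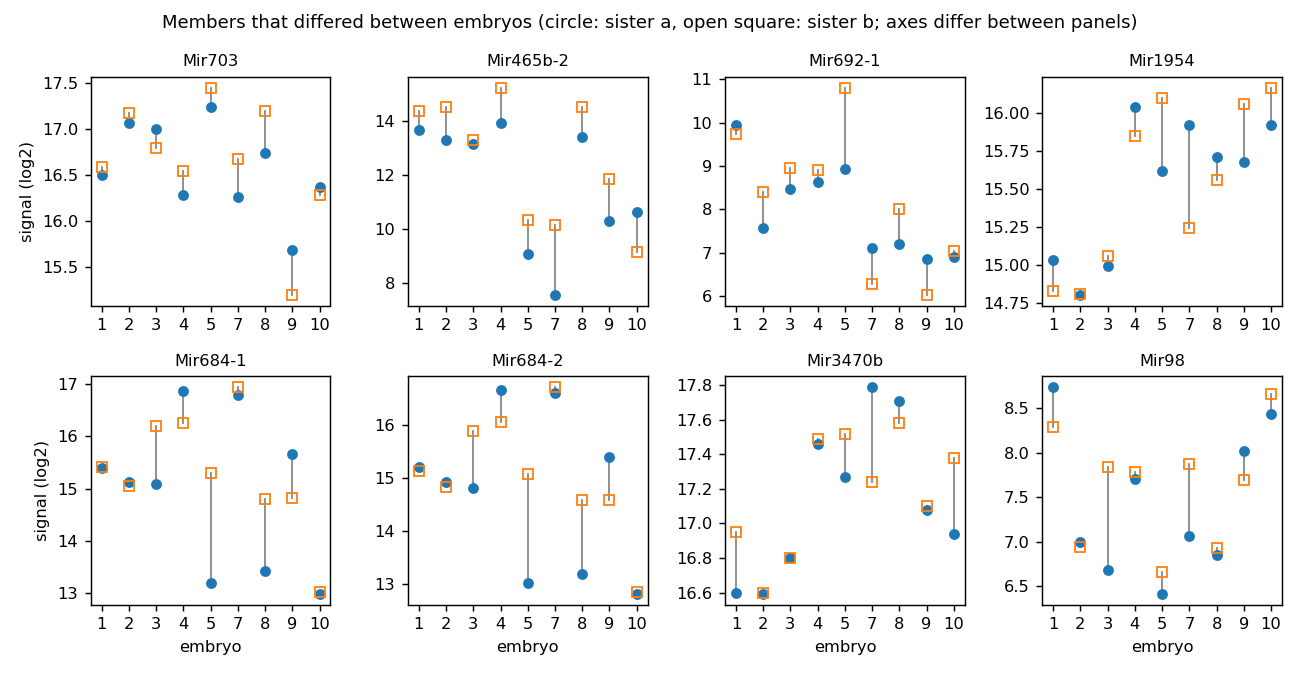
Each panel shows the log2 signal of 1 of the 8 members in which embryos differed, with the embryo number on the x axis. Filled circles are sister a, open squares are sister b and a line joins the sisters, and the y axes differ between panels. Embryo 9 is lowest for Mir703 (15.69 and 15.20) and embryo 10 for Mir684-1 (12.97 and 13.01).

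The families known from other stages were then examined one by one. Of 12 measured let-7 genes, which act in developmental timing and whose hairpins are bound by Lin28a, 7 were above the threshold, from 6.18 in Mirlet7e to 7.61 in Mirlet7d. Mirlet7d, Mirlet7f-1 and Mirlet7a-1 are neighbours on chromosome 13 and correlated with each other at 0.17 to 0.25 over 18 blastomeres. Mirlet7f-1 had the largest sister ratio of the family (1.83), with a lowest value of 5.17, a median of 5.96 and a highest of 8.51. Mir98 alone of the 7 differed between embryos, at the margin described above, where 5.8% of all genes above background did.

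Families that are known from embryonic stem cells or epithelia were measured in part. Of 9 listed genes of the miR-290 cluster 2 were measured, and neither was above 5.80 (Mir290b 4.70 ± 0.56, Mir292b 4.41 ± 0.65), nor was any of the 5 genes of the miR-302 cluster, with Mir302d the highest at 4.87 ± 0.30. Of 5 listed miR-200 genes, which act in epithelial cells, 4 were measured, all below the threshold, and they had their highest mean in Mir141 (5.68 ± 0.45). Of 16 listed genes of the miR-17 families 6 were measured, of which Mir92-2 alone was above (6.32 ± 0.52).

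At imprinted loci the embryos carried maternal chromosomes only. Of 42 measured microRNA genes between Dlk1 and Dio3 on chromosome 12, a region whose microRNAs are expressed from the maternal chromosome, 11 were above the threshold, from 5.89 in Mir453 to 7.55 in Mir432. Their median sister ratio was 1.38, and embryos differed in 0 of them (limma), also before adjustment, where 5.8% of all genes passed and 22.6% were under 0.05 before adjustment. Of 67 microRNA genes inside Sfmbt2, a gene expressed from the paternal chromosome in extraembryonic tissue, 42 were above. Their median sister ratio was 1.34 and embryos differed in 0 of them (limma), with 1 under 0.05 before adjustment, against the same shares of all genes (5.8% and 22.6%). These 42 include the 13 copies with identical values in 3 sets, so they are not 42 separate readings. The 5 of highest signal there were Mir669e (14.40 ± 0.31), Mir669m-2 (13.22 ± 0.32), Mir669h (10.42 ± 0.72), Mir466f-3 (9.97 ± 0.67) and Mir466o (9.55 ± 0.48), and all 5 were read by probe sets named for other chromosomes. The brightest one with a probe set on chromosome 2 was Mir466f-1 (9.53 ± 0.47).

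**Figure D4:**
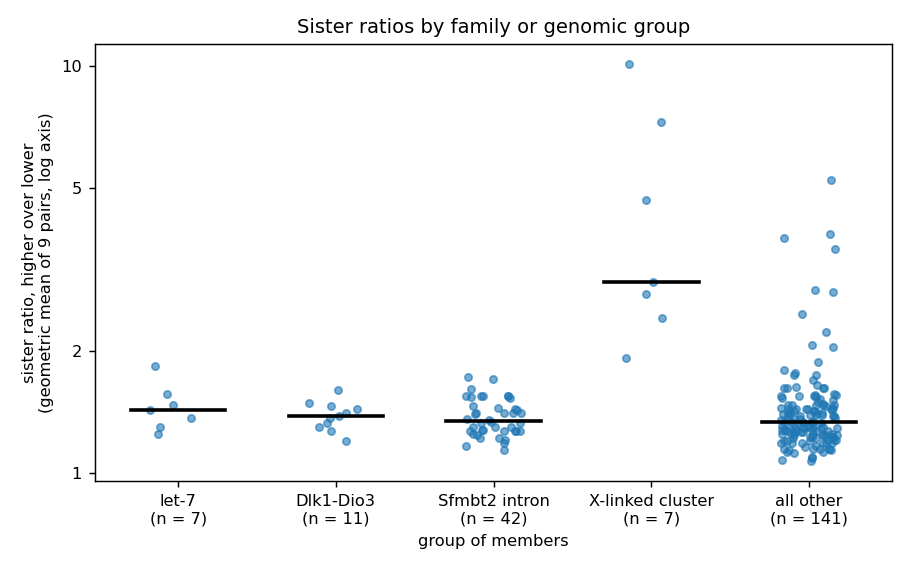
Each point is the sister ratio of 1 member, the geometric mean over 9 pairs on a logarithmic axis, and the bar is the median of the group. The 7 members of the X-linked cluster span 1.92 to 10.1, and the 11 members between Dlk1 and Dio3 span 1.20 to 1.60. The highest in the X-linked cluster, Mir463 and Mir883b, were selected through the same high blastomeres that give their ratios. This cluster was singled out after its values had been seen, so the groups are not a test.

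The median correlation between neighbouring members was low in most clusters, though mostly above that over all pairs of members. With at most 10 kb between neighbours in the RefSeq annotation, 60 members fell into 8 clusters. The median correlation within a cluster over 18 blastomeres ran from -0.15 in Mir883b and Mir463 to 0.55 in Mir193b and Mir365-1, and it was 0.18 in the 37 members of the Sfmbt2 cluster and 0.29 in the 7 of the larger Dlk1-Dio3 cluster. Over all pairs of members it was 0.06. Single pairs varied widely, from -0.48 to 0.94 in the Sfmbt2 cluster and from -0.17 to 0.76 in the larger Dlk1-Dio3 cluster. Mir30c-1 and Mir30e, which share the seed GUAAACA and lie side by side on chromosome 4, correlated at 0.15. Mir30c-1 was even (9.15 ± 0.29, sister ratio 1.23), while Mir30e reached 9.91 in 3a, 10.44 in 7a and 10.41 in 10a against 5.39, 6.81 and 6.96 in their sisters (sister ratio 3.77).

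The correlation of members with their host genes was low as well. A measured host gene on the same strand was found for 53 members, and the median correlation with it was -0.06 over 18 blastomeres. The correlation was over 0.5 in 3 of them, namely Mir3100 with Dmpk (0.71), Mir691 with Robo2 (0.61) and Mir7055 with Slc17a7 (0.56), and these 3 hosts lay below the threshold. Mir3100 also correlated with the array median, at 0.87. Mir335 had r = -0.20 with Mest (and 0.83 with the array median), and Mir483 had r = 0.40 with Igf2, both hosts being expressed from the paternal chromosome. Mir483 read 13.07 ± 0.56 and Igf2 read 5.88. The hosts of Mir30c-1 and Mir30e are the same gene, Nfyc, with r = 0.07 and 0.09.

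The genes that make and use microRNAs were measured alongside. Of 20 such genes 19 were above the threshold, and embryos differed in 0 of them (limma), with 1 under 0.05 before adjustment, against 5.8% and 22.6% of all genes. With so few genes a count of 0 is near the general share. Drosha, which cuts the primary transcript, read 13.02 ± 0.54, and Dicer1, which cuts the hairpin, read 12.20 ± 0.41. Among the Argonautes, Ago3 read 10.70 ± 0.47, Ago2 8.16 ± 1.04 and Ago1 5.81 ± 0.27. Lin28a, which blocks let-7 processing, read 7.85 ± 0.34 (SD, n = 18). The double-strand RNA-binding partner Prkra alone was below, at 4.61 ± 0.21. The median sister ratio of the 19 was 1.47, from 1.15 in Ran to 2.48 in Ddx17.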

How the data were processed

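Total RNA of 18 single blastomeres was labelled with the WT Pico kit and hybridised to Affymetrix Mouse Transcriptome Array 1.0. The authors deposited log2 values, which they had made with signal space transformation and robust multiarray averaging, that is, background correction, equalization of the arrays and 1 summary value per probe set. Array medians were 4.86 to 5.26. The number of arrays limits the precision, and the sources used here do not give a genome build for the probe sets. Of 65956 probe sets 30638 had 1 gene symbol in the platform annotation and were used, and 2176 with several and 33142 with none were left out. For genes with several probe sets the one of highest mean was kept. The threshold of 5.80 is the 95th percentile of 1397 chemosensory receptor genes.

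Embryo was fitted as a factor with limma 3.58.1 (R 4.3.3), using a moderated F test with an intensity trend, and p-values were adjusted after Benjamini-Hochberg at 0.05 over 12895 genes above background. Sister variance was tested against the prior of the same fit. The p-values of the F test set the spread between embryos against that between sister blastomeres. The letters a and b name sisters and carry no order. The scripts were run on simulated data, with normal noise at the prior SD of each gene apart from the changes put in. The simulated variances did not scatter from gene to gene as in the data, so this run does not measure the power of the tests here. Alternatives were the normalization, the probe set rule, the prior, the threshold, a plain analysis of variance, a replicate block and leaving out blastomeres or pairs.

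Named were the 10 highest means, the members called, the 5 largest and smallest sister ratios, clusters, families of interest and hosts, and members next to the threshold. Members and lists were chosen with earlier results of these data known. Mir1931, Mir6994 and the X-linked genes below the threshold were described after their values were seen.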

Additional observations from a re-analysis of the deposited data

Results flagged for a closer look

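Signals also came from probe sets that the comparisons did not use. Of 541 probe sets with several gene symbols of which at least 1 was a microRNA, 316 carried microRNA symbols alone, and 131 of these had a mean above 5.80, the threshold set by the receptor genes. The highest was that of Mir7119, at 14.19 ± 0.64 (SD, n = 18). Its other symbol, mmu-mir-7119, is a second name of the same gene, so not every such probe set is shared by several genes. How many of the 131 were left out through a second name alone was not counted. A probe set shared by Mir465c-1 and Mir465c-2 read 13.60 ± 1.43, and one shared by Mir465b-1 and Mir465b-2 read 12.14 ± 2.28. Their means and SDs are the same as those of the members Mir465c-2 and Mir465b-2, so they are not taken as further readings. The groups of sisters hold 2 blastomeres each, which is too few for a search for outlying samples within them.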

How the results depend on the processing

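The count of members in which embryos differed was 8. It was 5 when all named genes were tested, and 4 with a plain analysis of variance in place of the moderated test. Of these 4, Mir703 and Mir465b-2 alone were among the 8 (adjusted p = 0.0266 and 0.0454). It ranged from 4 (without blastomere 10b) to 12 (without 1b) when single blastomeres were left out, and from 5 to 10 when single pairs were. With arrays centred on their medians, quantile normalization, the mean of a gene's probe sets, a prior without trend or the letter as a replicate block it was 7 or 8. The replicate block left 7 members, and Mir98 was lost with it (adjusted p = 0.0626). These counts hide lost calls: Mir1954 and Mir3470b were lost with the mean of probe sets (0.07 and 0.0649) and without trend (0.0637 and 0.121), and Mir3470b with median centring (0.0525). Mir684-1, Mir684-2 and Mir98 were lost when all named genes were tested (0.055, 0.055 and 0.0911). The plain analysis of variance lost them too (0.0989, 0.0976 and 0.0755), as it lost Mir1954 and Mir3470b (0.064 and 0.0769). Mir703 and Mir465b-2 kept adjusted p at or under 0.05 in every alternative run, with highest values of 0.0368 and 0.0454, and Mir692-1 in all but the plain analysis of variance (0.0543). Excess sister spread was called in 0 members, and in 0 genes, in every fit, but with so few prior degrees of freedom the test could hardly call any gene, so this says nothing about stability. The median sister ratio of the members ranged from 1.305 to 1.37 when single pairs were left out, and the number of members above background from 204 to 211. With the 99th percentile of the receptors as threshold (7.115), 99 microRNA genes were above background. Leaving out blastomeres or pairs leaves fewer samples for the test.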
